A study of Arabidopsis thaliana with 12 samples.

Results

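The 38 genes described here rose to their highest or nearly highest signal at the end of a 10-day culture in which Arabidopsis cells were induced to form tracheary elements. They were chosen by their values. Signals were raised to 20, taken to log2 and averaged over the 2 arrays of a day, and a gene was kept if its day 10 mean lay at least 1.5 above day 0, at least 1 above each of days 2 and 4, and at least 0.7 above day 6, with both day 10 signals at 60 or more. Only probe sets of 1 gene whose symbol is no more than its locus code were considered, and 38 of 11798 such genes, or 0.318% of their 11933 probe sets, met the thresholds. The same thresholds were met by 2 genes with a symbol of another kind, AAH and MSRB5 (0.127% of 1580 probe sets), by 43 probe sets with no gene listed (0.493% of 8730) and by 0 of 503 probe sets of several genes. Raising signals to 40 in place of 20 left 21 of the 38.

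The study followed a suspension culture of Arabidopsis thaliana, ecotype Col-0, through days 0, 2, 4, 6, 8 and 10 on 12 Affymetrix ATH1 arrays, 2 per day. Day 0 is labelled as untreated, and from then on the cells had brassinolide (a steroid hormone of plants, 1 uM) together with boric acid at 10 mM. The labelled temperature alternates, at 22 °C on days 0, 4 and 8 but 27 °C on days 2, 6 and 10, so each step between neighbouring days is also a step in labelled temperature, and day and temperature cannot be told apart there. Whether both arrays of a day stem from independent cultures is not labelled, and p-values therefore cover only array-to-array spread, which might be purely technical. The proportion of cells that turned into tracheary elements is unknown here, and in such a bulk culture more cells of a type and more RNA per cell cannot be told apart.

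Tracheary elements are the water-conducting cells of the xylem. A cell that takes this path lays down a patterned, lignified secondary wall, then dies by a programmed death in which its own vacuole breaks open and its contents are digested, leaving a hollow wall. Brassinosteroids are known to promote this differentiation in cultured cells. The gene table gives a function for 1 of the 38 genes, AT2G41480, whose synonyms name it peroxidase 25; plant peroxidases oxidise phenolic compounds, among them lignin precursors. It lists AT2G14650 as a pseudogene and the other 37 as protein-coding. For the remaining genes that table gave no function, which does not mean that none is known or that no other is a peroxidase. The genes are therefore ordered below by the time at which they rose.

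Most genes listed as markers of vessel cells were not examined, as they could not be matched to a probe set. The matched ones were 4 of 9 vessel cell death genes, 3 of 18 secondary wall genes and 0 of 12 xylem regulators. All 7 matched genes were higher on day 10 than on day 0, as were 36.4% of all tested probe sets. The vessel death gene AT4G04460 had a mean signal of 12.2 on day 0 and 1200 on day 4. Over the 15103 tested probe sets the 2 arrays of a day correlated with r between 0.978 and 0.983, and array medians ranged from 33.2 to 40.7.

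Before induction most of the 38 genes were dim. Both day 0 arrays were below 20 in 23 of them, and no day 0 array was in 11. The median of their mean signals was 12.3 on day 0, 27.1 on day 2, 33.8 on day 4, 62.7 on day 6, 109 on day 8 and 126 on day 10. From day 6 on, no array of any member was below 20. The day 10 means ran from 63.1 to 728, with 11 of the 38 under 100. A signal under 20 was treated as unmeasured in the rule and in folds. A fold against such a day is therefore a lower bound in what follows. The main limma fit, described further below, used signals not raised to 20, so its differences, medians and calls include values under 20.

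**Figure D1:**
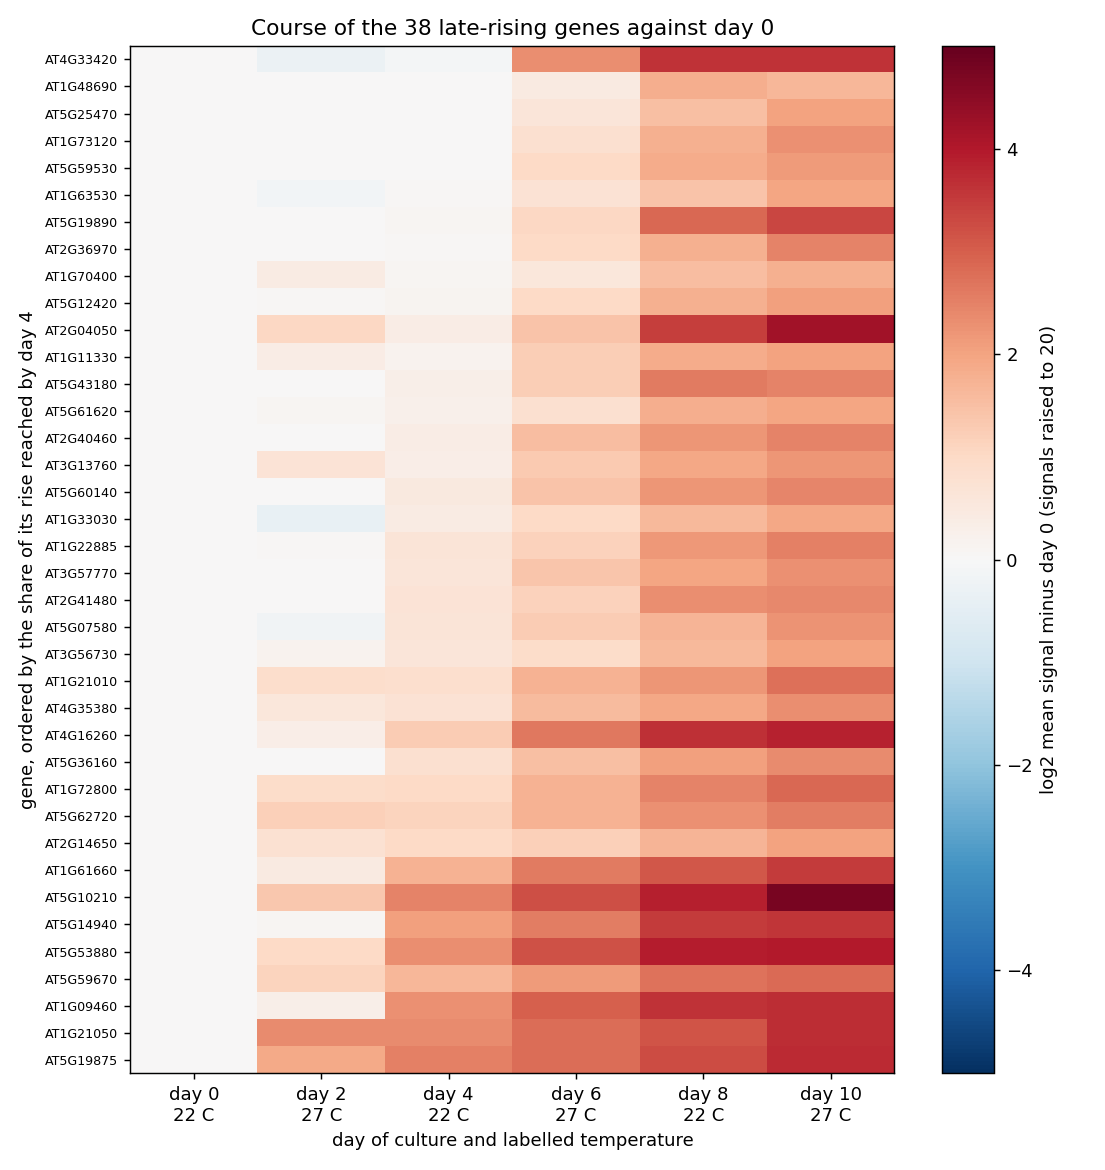
Colour gives, for each of the 38 genes (rows), the log2 mean signal of 2 arrays minus that of day 0, with signals raised to 20; columns are the 6 days with their labelled temperature. Rows are ordered by the share of the rise reached by day 4, and the median share grew from 25.9% on day 4 to 87.0% on day 8.

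The name "late" fits these genes unevenly. On the floored log2 scale 7 genes were already at least 1 above day 0 by day 2, 5 more by day 4, 17 by day 6 and 9 by day 8, and none waited until day 10. The median gene had covered 3.49% of its rise by day 2, 25.9% by day 4, 59.6% by day 6 and 87.0% by day 8. The largest single step fell between days 4 and 6 in 12 genes and between days 6 and 8 in another 12. It fell between days 8 and 10 in 0. The highest mean was on day 10 in 36 genes and on day 8 in 2, AT1G48690 and AT5G43180.

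The 7 genes that rose first were AT1G21050, AT2G04050, AT5G10210, AT5G19875, AT5G53880, AT5G59670 and AT5G62720. AT5G10210 gave day 0 signals of 0.729 and 0.882, 60.3 with 43.3 at day 2, 127 with 98.7 at day 4, day 6 signals of 188 and 190.3, 236 with 363 at day 8, and 585 with 501 at day 10. Every array was above every array of the earlier days, and day 10 was at least 27.1-fold above day 0. AT5G53880 gave day 0 signals of 4.32 and 1.96, 45.0 with 35.8 at day 2, 78.0 with 131 at day 4, day 6 signals of 168 and 197, 293 with 308 at day 8, and 314 with 305 at day 10. Its day 8 and day 10 arrays overlapped, and day 10 was at least 15.5-fold above day 0. AT1G21050 gave day 0 signals of 13.1 and 13.7, 95.4 with 113 at day 2, 119.9 with 89.6 at day 4, day 6 signals of 138 and 137, 178 with 173 at day 8, and 259 with 263 at day 10. The gene had its largest step between days 0 and 2, overlapped on days 2 and 4, and reached at least 13.0-fold over day 0. AT5G19875 gave day 0 signals of 15.9 and 17.7, 88.8 with 61.7 at day 2, 124 with 106 at day 4, day 6 signals of 139 and 135, 166 with 227 at day 8, and 297 with 237 at day 10. Its largest step was also the first, and it reached at least 13.3-fold. AT2G04050 gave day 0 signals of 27.3 and 22.3, 69.6 with 37.2 at day 2, 33.7 with 30.3 at day 4, day 6 signals of 94.0 and 45.7, 271 with 278 at day 8, and 471 with 439 at day 10. Its day 4 arrays lay below both day 2 arrays, a difference of -0.67 that was not called (limma adjusted p 0.107), and its day 10 mean was 18.4-fold above day 0. Its day 6 arrays were wide apart, but both lay below both day 8 arrays. AT5G59670 gave day 0 signals of 23.7 and 18.7, 39.8 with 56.6 at day 2, 72.9 with 65.9 at day 4, day 6 signals of 103 and 86.5, 142 with 143 at day 8, and 151 with 158 at day 10. It met the rule narrowly, with day 10 only 0.71 above day 6 on the log2 scale.

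The 5 genes that followed by day 4 were AT1G09460, AT1G61660, AT1G72800, AT4G16260 and AT5G14940. AT1G72800 gave day 0 signals of 92.1 and 107, 185 with 193 at day 2, 187 with 213 at day 4, day 6 signals of 390.3 and 278, 494 with 612 at day 8, and 767 with 689 at day 10. It was the brightest of the 38 on day 10 and the day 8 and day 10 arrays did not overlap. AT1G09460 gave day 0 signals of 40.5 and 28.4, 47.5 with 37.1 at day 2, 173 with 158 at day 4, day 6 signals of 301 and 243, 432 with 409.9 at day 8, and 465 with 424 at day 10. Its day 8 and day 10 arrays overlapped, and day 10 was 13.1-fold above day 0. AT4G16260 gave day 0 signals of 25.8 and 14.8, 33.4 with 24.8 at day 2, 50.8 with 57.8 at day 4, day 6 signals of 159 and 125, 244 with 332 at day 8, and 299 with 356 at day 10. The day 8 and day 10 arrays overlapped, and both were above every earlier array; the floored fold over day 0 was at least 14.4. AT5G14940 gave day 0 signals of 14.4 and 9.99, 22.6 with 16.8 at day 2, 74.4 with 93.8 at day 4, day 6 signals of 129.8 and 108, 207 with 248 at day 8, and 246 with 226 at day 10. Here too days 8 and 10 overlapped, at no less than 11.8-fold over day 0. AT1G61660 gave day 0 signals of 0.540 and 1.13, 23.6 with 30.8 at day 2, 73.8 with 61.2 at day 4, day 6 signals of 114 and 129.9, 207 with 141 at day 8, and 229.9 with 226 at day 10. Day 0 was unmeasured, and the bound of the rise was 11.4-fold.

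The 17 genes that passed this mark on day 6 were AT1G11330, AT1G21010, AT1G22885, AT1G33030, AT2G14650, AT2G40460, AT2G41480, AT3G13760, AT3G57770, AT4G33420, AT4G35380, AT5G07580, AT5G19890, AT5G36160, AT5G43180, AT5G59530 and AT5G60140. Their day 10 means lay between 87.5 and 312, with a median of 113. AT4G33420 gave day 0 signals of 29.0 and 20.2, 8.74 with 5.82 at day 2, 26.3 with 13.0 at day 4, day 6 signals of 112 and 129, 290.2 with 297 at day 8, and 305 with 292 at day 10. AT4G33420 was below 10 on day 2, climbed between days 4 and 8 and overlapped on days 8 and 10, at 12.3-fold over day 0. AT2G41480 gave day 0 signals of 13.4 and 5.86, 14.8 with 15.3 at day 2, 26.2 with 39.2 at day 4, day 6 signals of 39.7 and 50.1, 97.3 with 104 at day 8, and 131 with 85.8 at day 10. Both day 8 arrays of this peroxidase gene were above both day 6 arrays, but its day 10 arrays spread on both sides of the day 8 arrays. AT5G43180 gave day 0 signals of 1.35 and 3.40, 4.09 with 4.01 at day 2, 22.5 with 26.1 at day 4, day 6 signals of 48.7 and 45.2, 109 with 133 at day 8, and 130.1 with 96.7 at day 10. The mean of AT5G43180 was highest on day 8, and its day 10 arrays overlapped those of day 8. AT3G13760 gave day 0 signals of 60.7 and 75.3, 112 with 103 at day 2, 94.8 with 76.3 at day 4, day 6 signals of 168 and 166, 259 with 254 at day 8, and 311 with 314 at day 10. From day 4 on, the arrays of AT3G13760 were higher at every step, with no overlap between neighbouring days. AT2G14650 gave day 0 signals of 24.1 and 22.9, 45.1 with 34.3 at day 2, 46.2 with 47.1 at day 4, day 6 signals of 50.4 and 58.4, 77.6 with 76.7 at day 8, and 115 with 76.4 at day 10. The pseudogene AT2G14650, measured by a probe set shared with other sequences, met the rule narrowly over day 4, by 1.00 on the log2 scale.

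The 9 genes that reached the mark only on day 8 were AT1G48690, AT1G63530, AT1G70400, AT1G73120, AT2G36970, AT3G56730, AT5G12420, AT5G25470 and AT5G61620. AT5G12420 gave day 0 signals of 95.2 and 125, 168 with 75.8 at day 2, 116 with 124 at day 4, day 6 signals of 216 and 219, 375 with 376 at day 8, and 439.8 with 459 at day 10. AT5G12420 was the brightest of the 9, and its days 4, 6, 8 and 10 did not overlap. AT2G36970 gave day 0 signals of 10.6 and 9.01, 16.4 with 13.7 at day 2, 19.3 with 22.0 at day 4, day 6 signals of 37.2 and 42.4, 64.3 with 71.3 at day 8, and 108 with 117 at day 10. AT2G36970 was below 20 on every array of days 0 and 2, and its arrays did not overlap between neighbouring days from day 4 on. AT1G63530 gave day 0 signals of 24.8 and 19.5, 19.9 with 18.9 at day 2, 23.1 with 22.7 at day 4, day 6 signals of 42.5 and 31.2, 53.6 with 65.5 at day 8, and 84.3 with 90.8 at day 10. AT1G63530 stayed near 20 until day 4. AT1G48690 gave day 0 signals of 0.654 and 0.338, 0.561 with 0.701 at day 2, 1.41 with 1.5 at day 4, day 6 signals of 26.4 and 27.6, 59.1 with 82.7 at day 8, and 66.0 with 60.2 at day 10. AT1G48690 was below 2 on every array up to day 4, and its day 8 and day 10 arrays overlapped, with a day 10 signal close to the minimum of 60. The remaining 5 genes were between 63.6 and 99.7 on their day 10 arrays. The mark compares signals raised to 20, so a gene below 20 on day 0 can pass it later than its unraised signals rise. AT1G70400 gave day 0 signals of 1.83 and 1.18 and already 31.1 with 22.9 at day 2. limma called that step higher (4.18, adjusted p 2.73e-07), a call lost with signals raised to 20. The order of these groups thus depends in part on the floor.

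**Figure D2:**
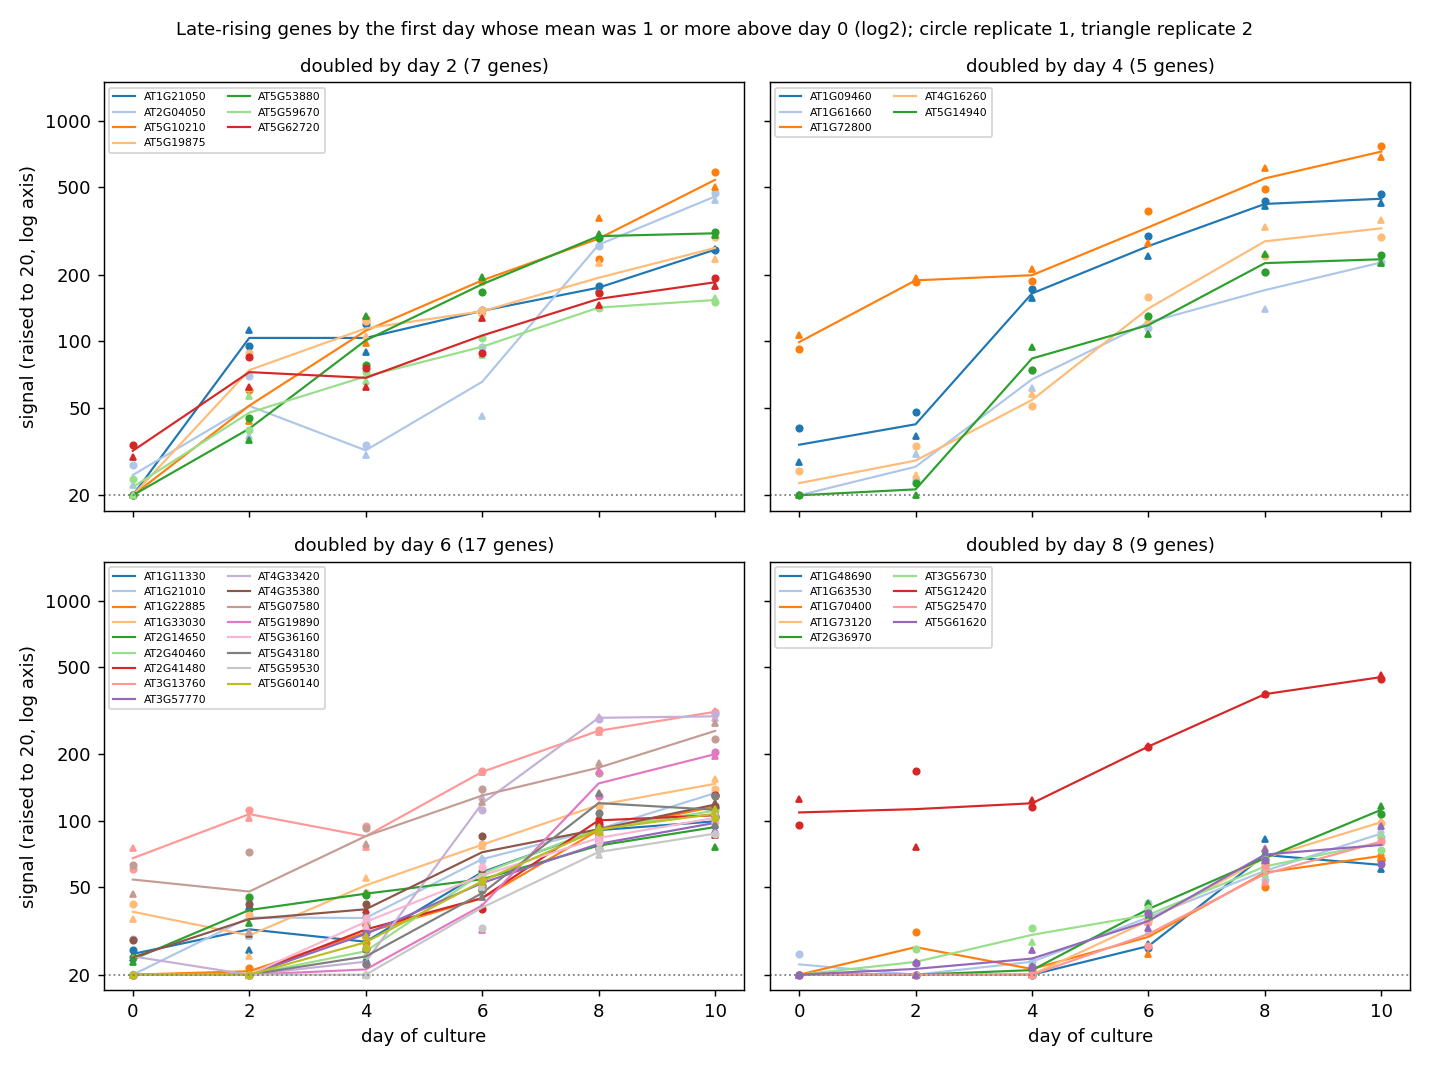
Signal on each array (log axis, raised to 20) against the day of culture, with 1 colour per gene, circles for replicate 1, triangles for replicate 2 and lines through the geometric mean; panels give the first day whose mean was at least 1 above day 0 on the log2 scale. The 5 genes of day 4 ended between 228 and 728, and the 9 genes of day 8 between 63.1 and 449.

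The thresholds drew a sharp line through a gradual pattern. Just inside lay AT1G48690, with day 10 signals of 66.0 and 60.2, AT2G14650 and AT5G59670. Just outside lay AT5G35450, AT5G10580 and AT3G11420, whose day 10 means were 0.70, 0.69 and 0.69 above day 6. AT3G11420, at 275 and 244 on day 10, was brighter than most of the members.

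Day 8 took no part in the choice of genes, and it could be compared with day 4 at the same labelled temperature of 22 °C. limma was fitted to log2 signals of all tested probe sets, and adjusted p-values are Benjamini-Hochberg values over all of them. Each tested comparison shares arrays with the rule all the same: days 0 to 6 were held low, and day 10 high, by the choice of genes. Of the 38 genes 37 were higher on day 8 than on day 4 and 0 lower, where 12.2% of all tested probe sets were higher and 10.8% lower. The median difference of the members was 1.5 on the log2 scale against 0.02 over all tested probe sets, and both day 8 arrays were above both day 4 arrays in 38 of 38, as in 33.4% of all tested probe sets. At 27 °C, day 10 lay 0.71 to 2.80 above day 6, a difference the rule itself set. The 1 gene not called for day 8 against day 4 was AT3G56730, singled out after its values were seen. Its day 8 difference from day 4 was 1.03 ± 0.36 (SE, n = 2 per day), with a limma adjusted p of 0.0608. AT3G56730 gave day 0 signals of 9.41 and 3.64, 26.1 with 18.3 at day 2, 32.7 with 28.2 at day 4, day 6 signals of 40.2 and 34.9, 67.1 with 57.3 at day 8, and 73.7 with 86.4 at day 10.

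Among the 31 genes with no day 4 array under 20, the day 8 differences from day 4 ran from 0.73 to 3.10. AT2G04050 led with 3.10 ± 0.32 (limma adjusted p 7.84e-05), a rise of 8.58-fold. AT4G33420, dim on 1 day 4 array, rose at least 12.8-fold, and AT5G19890, also dim on 1, at least 6.99-fold. AT1G21050, AT5G19875 and AT2G14650 rose least, by 0.76, 0.76 and 0.73. Centring each array on its median moved the median of all tested probe sets by more than 0.1, from 0.02 to -0.11. The lowest member stood at 0.59 after centring, and the share of calls that were higher fell from 52.9% to 31.5% over all probe sets.

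Between days 6 and 8 fewer differences passed the test. Both day 8 arrays were above both day 6 arrays in 38 of 38 genes, as in 30.7% of all tested probe sets. limma called 9 higher and 0 lower, against 2.98% and 2.61% of all tested probe sets, with a median of 0.73 for the members and 0.04 overall. The 2 largest were AT2G04050, up 2.07 ± 0.32 (limma adjusted p 0.00583), and AT5G19890, up 1.84 ± 0.28 (limma adjusted p 0.00583). The other 7, from 0.62 to 1.29, were AT3G13760, AT1G22885, AT1G72800, AT5G14940, AT4G33420, AT2G36970 and AT4G16260. These calls depend on single arrays: the count was 0 without the second day 8 array, 3 without the first, 3 and 2 without the first or second day 6 array, and 17 without either day 0 array. It was 23 with signals raised to 20, 27 with 16 added to each signal, 22 with only the 4 arrays of the days compared and 5 without a variance trend. Shares of all probe sets called are not given for these settings, here or further below. The 2.98% of the main fit is therefore no background for such counts. No one of the 9 was called under every alternative setting. Array centring also changed the balance over all probe sets, from 53.3% of calls being higher to 28.9%.

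From day 8 to day 10 no member was called in either direction by limma, where 0.0199% of all tested probe sets were higher and 0.053% lower. At an unadjusted p under 0.05 there were 9 members, beside 1296 of the 15103 probe sets, and the lowest adjusted p of a member was 0.151. Calls came to 1 with signals raised to 20, 2 with 16 added and 3 with only the 4 arrays of both days. Over all probe sets 3 of 11 calls were higher, and 4 of 8 after array centring. The median difference was 0.30 among members and 0.01 overall. Both day 10 arrays were above both day 8 arrays in 26 of 38 genes and overlapped in 12, and 20.6% of all tested probe sets were higher in the same sense. The 5 largest differences were 0.89 ± 0.22 for AT5G10210, 0.73 ± 0.18 for AT2G36970, 0.73 ± 0.32 for AT2G04050, 0.57 ± 0.14 for AT1G21050 and 0.56 ± 0.20 for AT1G63530. The 5 smallest were -0.15 for AT1G48690, -0.10 for AT5G43180, 0.02 for AT4G33420, 0.04 for AT5G53880 and 0.06 for AT5G14940. A rise beyond day 8 was not detected with 2 arrays a day, which does not show that it was absent.

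**Figure D3:**
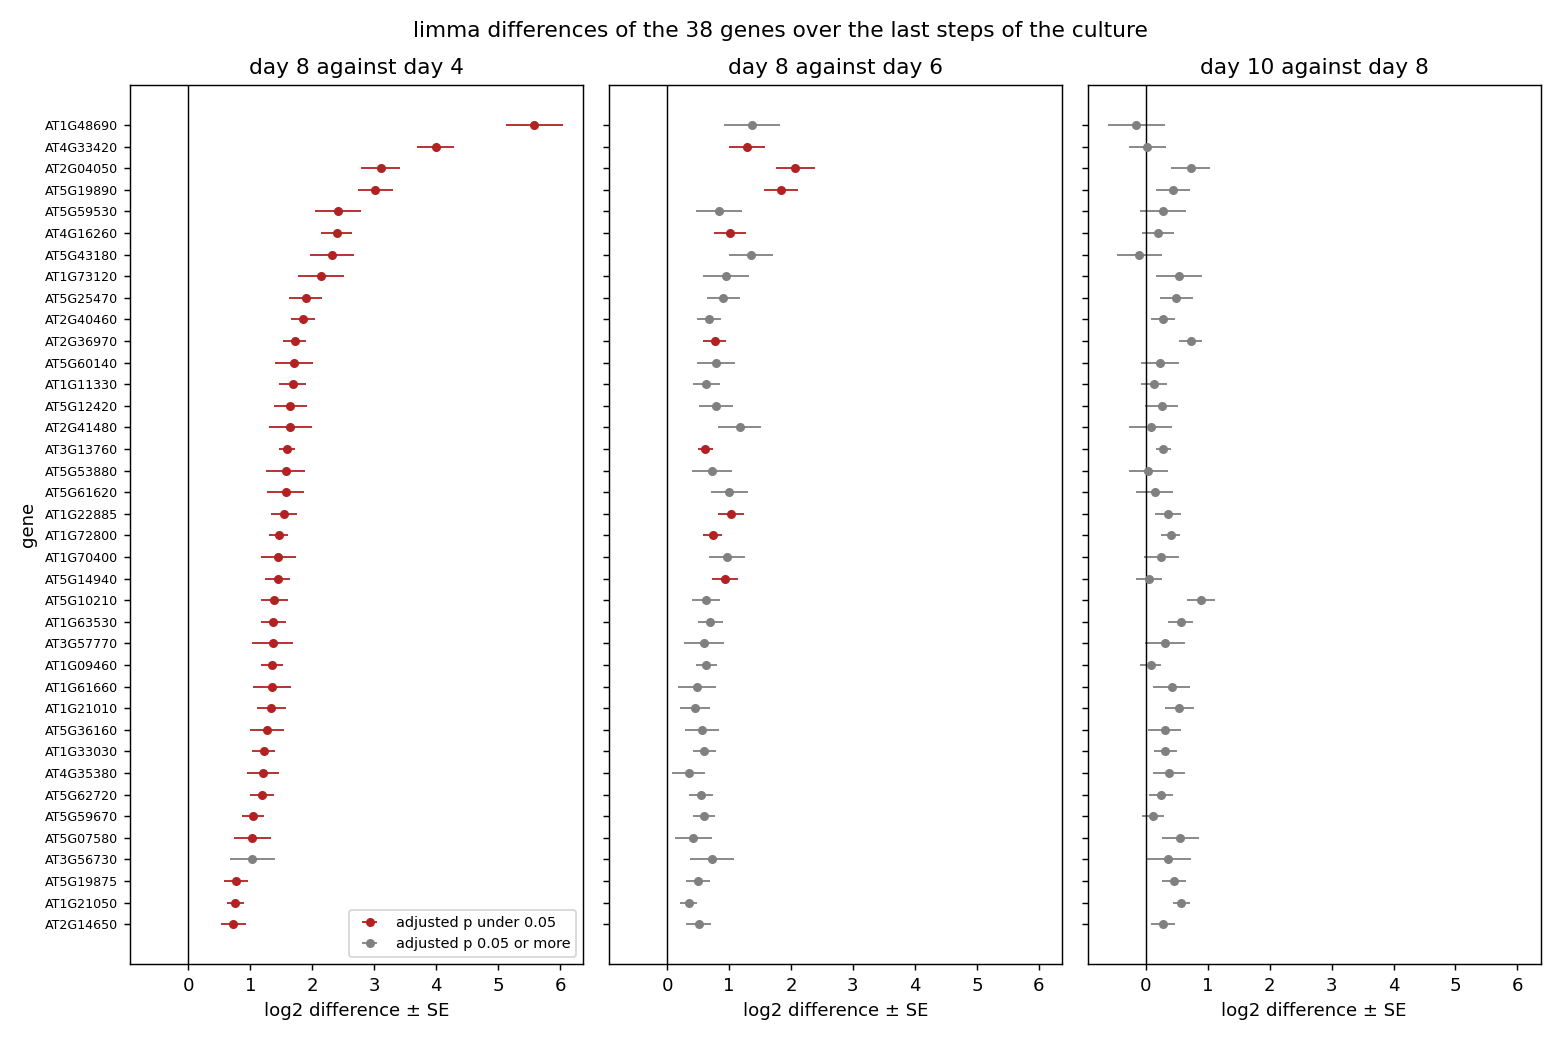
limma log2 difference ± SE of each of the 38 genes (rows, in the same order in all panels) for day 8 against day 4, day 8 against day 6 and day 10 against day 8; red marks an adjusted p under 0.05. Red fills the left panel but for AT3G56730, holds 9 genes in the middle panel and 0 in the right panel.

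The earlier steps were mixed. Their days all took part in the choice of genes, each held below day 10 by the rule. The counts of these steps therefore describe the chosen genes, and the shares of all tested probe sets are no test of them. From day 4 to day 6 limma called 19 members higher and 0 lower, against 7.71% and 7.94% of all tested probe sets, with medians of 0.81 and -0.03, and all 38 had both day 6 arrays above both day 4 arrays, as did 26.1% of all tested probe sets. This count was 8 and 9 without the second or the first day 4 array, 9 without the first day 6 array, 12 without either day 10 array and 12 with no filter on low signals, and array centring took the share of higher calls over all probe sets from 49.3% to 38.4%. From day 2 to day 4 limma called 21 higher and 1 lower, against 22.3% and 22.5%, with medians of 0.69 and 0.00, and 17 of the 21 had both day 4 arrays at 20 or above. With signals raised to 20 the medians of this step were 0.22 for the members and 0.00 overall. The count of 22 calls was 11 without the second day 4 array and 13 without the second day 2 array. The gene called lower was AT3G13760, which fell by 0.33 with a limma adjusted p of 0.0487. It was not called under 14 of 21 alternatives, and over all 21 its difference ranged from -0.49 to -0.18.

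From day 0 to day 2 limma called 24 genes higher and 1 lower, against 35.3% and 26.1% of all tested probe sets, with medians of 0.75 and 0.07. With signals raised to 20 the medians were 0.09 for the members and 0.02 overall. In 14 of the 24 both day 2 arrays were at 20 or above, and with signals raised to 20 the calls came to 12. AT1G21050 rose at least 5.18-fold from a day 0 below 20 on both arrays (limma adjusted p 1.36e-08). AT5G19875 rose at least 3.70-fold from a day 0 below 20 on both arrays (limma adjusted p 2.53e-06). The p-values of these 2 genes came from the fit to signals not raised to 20, while their folds compare raised signals. The 1 gene called lower was AT4G33420, which went from 29.0 and 20.2 on day 0 to 8.74 and 5.82 on day 2, under the level taken as measured, and its call was lost with signals raised to 20 (limma adjusted p 0.225). The comparisons of days 8 and 10 with day 0 were fixed by the choice of genes that were low on day 0, and nothing is read from them: all 38 were higher in both, where 36.2% and 36.4% of all tested probe sets were higher and 27.3% and 27.6% lower.

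The choice of genes could be repeated on 1 array per day. As independent cultures are not labelled, this compares arrays and may not compare cultures. The first arrays alone gave 41 genes, of which 30 met the whole rule in the second arrays, and in those second arrays day 8 was above day 6 in 39 and day 10 above day 8 in 30. The second arrays alone gave 47, of which 30 met the rule in the first, with day 8 above day 6 in 43 and day 10 above day 8 in 43. Among all tested probe sets day 8 was above day 6 in 49.6% and 53.8%, and day 10 above day 8 in 49.5% and 46.4%, of the second and first arrays. The held-out medians were 1.06 and 0.92 for day 10 over day 6, and 0.22 and 0.29 for day 10 over day 8. Values over all probe sets are not given for meeting the whole rule or for these medians. They describe only how far the arrays of a day repeat each other.

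The 38 genes were set beside lists of genes known to act in vessel formation, ageing, starvation, nitrogen use, autophagy, stress, defence, flavonoid synthesis or photosynthesis. The 14 lists named 152 genes, of which only 25 could be matched to a probe set through the platform annotation, 22 of them tested. None of these 25 met the rule's thresholds on signal. Only 83 of all 22746 probe sets did, so their absence among 25 genes shows little. The other listed genes were not examined. Whether any of them lies among the 43 probe sets with no gene listed that met the thresholds is unknown. The matched vessel death and wall genes had their highest means on earlier days. The mean signal of AT4G04460 was 545 on day 2, 1200 on day 4, 487 on day 6, 314 on day 8 and 236 on day 10. GUT2, whose synonym IRX10 stands for irregular xylem, went from 51.8 on day 0 to 495 on day 6 and then to 240.1 and 138 on days 8 and 10. Of the 7 vessel death and wall genes 1 was highest on day 4 and 6 on day 6, and all 7 had a lower mean on day 10 than on day 8. The members were chosen for a high day 10, so their own day 10 maximum follows largely from the rule and no contrast with these genes is drawn from it. The fall from day 6 to day 8 was called by limma in 3, namely AT4G04460 (-0.63, adjusted p 0.0135), AT4G18425 (-0.76, adjusted p 0.0208) and GUT2 (-1.03, adjusted p 0.00669). The step from day 8 to day 10 was called in 0 of the 7.

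**Figure D4:**
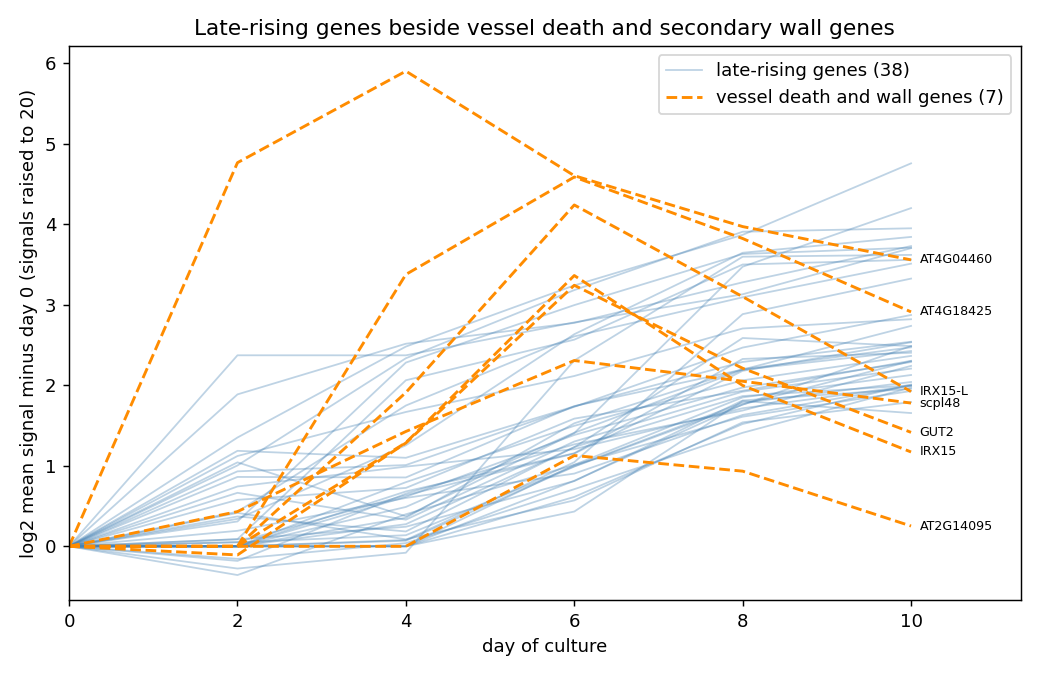
Log2 mean signal of 2 arrays minus day 0 (signals raised to 20) against the day of culture, with solid blue lines for the 38 genes and dashed orange lines for 7 vessel death and secondary wall genes. The orange lines peak on day 4 or day 6; 36 of the blue lines are highest on day 10, the day on whose height the rule chose them.

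In the other lists only some genes were called. On day 10 against day 0, where 36.4% of all tested probe sets were higher and 27.6% lower, limma called 3 of 4 tested sugar starvation genes higher (MCCA, MCCB and IVD, enzymes of leucine breakdown), 2 of 2 genes of the abscisic acid and drought response (COR47 and LTI30), 2 of 4 autophagy genes higher and 1 lower, and 1 of 1 photosynthesis gene (RCA, rubisco activase). Of the 3 tested senescence genes 1 was higher, SAG29, and 2 were lower, SAG101 and WRKY6. The 1 heat shock gene was not called in either direction. The flavonoid list had 1 matched gene, which was not tested. No listed gene was matched for xylem regulators, defence, phosphate starvation, nitrogen use and oxidative stress, so these lists were not examined. The annotation used for matching lists no gene for 8730 of the 22746 probe sets, so an unmatched gene is not shown to be missing from the array. COR47, a cold-regulated dehydrin named after its values were seen, had its highest mean on day 10 but did not meet the rule. Its mean signal was 29.8 on day 0, 66.3 on day 2, 547 on day 4, 629 on day 6, 643 on day 8 and 700.2 on day 10. LTI30 was also highest on day 10, at 205. The members were chosen for a high day 10, so no likeness to them is drawn from these maxima. Beside those shares of all probe sets, counts of so few genes show little about the lists.

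The locus codes also place the genes along the 5 chromosomes. Chromosome 1 held 12, chromosome 2 held 5, chromosomes 3 and 4 held 3 each, and chromosome 5 held 15, or 39.5% of the members beside 22.7% of all locus-only genes. Chromosome 3 held 7.89% beside 20.5%. These shares were not tested. AT1G21010 and AT1G21050 have no protein-coding gene between them, although several locus numbers separate them. AT1G21010 gave day 0 signals of 15.1 and 9.29, 44.1 with 30.0 at day 2, 34.5 with 37.9 at day 4, day 6 signals of 66.2 and 67.7, 81.9 with 103 at day 8, and 129 with 138 at day 10. AT1G21050 had risen earlier, as given above. AT5G19875 and AT5G19890 are separated by 1 protein-coding gene, AT5G19880, which ran between 0.39 and 31.8 over the 12 arrays and was no brighter than 10 on day 8 or day 10. AT5G19890 gave day 0 signals of 11.8 and 8.95, 10.8 with 8.63 at day 2, 22.3 with 14.9 at day 4, day 6 signals of 53.4 and 31.9, 129 with 169 at day 8, and 205 with 196 at day 10. The 2 flanking genes thus differed in timing, the first above 60 on both arrays from day 2 and the second only from day 8.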

How the data were processed

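RNA of the culture was hybridised to 12 Affymetrix ATH1 arrays, and the deposited values are linear MAS5 intensities per probe set, per the submitters' processing notes, with no MAS5 version given in the sources used here. The trimmed mean of each array is 100, which points to a common scaling before deposit. From these, 64 control probe sets were removed, leaving 22746. A probe set was tested if both arrays of at least 1 day reached the array's 40th percentile, which left 15103. limma 3.58.1 in R 4.3.3 was fitted to log2 signals with 1 mean per day over all 12 arrays, eBayes with a variance trend and Benjamini-Hochberg adjustment over the 15103, a call being an adjusted p under 0.05. There were 6 residual degrees of freedom, and the median SE of a difference between days was 0.15. The code was tested on simulated data. Arrays carry no read depth; their number limits the precision.

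Genes and symbols came from the platform annotation and RefSeq TAIR10.1, in which 38 of 38 members were found. The array files name no genome build, so no coordinates are given. Values beginning with "at least" compare means of signals raised to 20. The members and the gene lists were chosen with earlier results of these data known. The named genes are the 10 with the largest rise from day 0 to day 10, the 5 with the largest and the 5 with the smallest day 10 minus day 8 difference, the 5 brightest on day 10, the 3 nearest the thresholds on either side, and members called against the majority. Any other gene given with its values was chosen after they were seen. A promoter motif search and a grouping by product text had been planned and were not run, as no sequences or product text were at hand. Alternatives covered scaling, floor, pseudocount, filter, variance trend, arrays in the fit, the replicate number as a block and leaving out each array.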

Additional observations from a re-analysis of the deposited data

How the results depend on the processing

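With 2 arrays a day, dim signals and the steps after day 6 set the limits. The rule gave 38 genes, and between 37 and 47 when 1 array was left out; 21 with signals raised to 40, all among the 38; 35 after quantile normalization and 32 after centring each array on its median. Leaving out an array gave 20 to 28 members called between days 0 and 2, 11 to 23 between days 2 and 4, 8 to 27 between days 4 and 6, 0 to 17 between days 6 and 8, 0 to 0 between days 8 and 10, and 32 to 38 for day 8 against day 4. With signals raised to 20 the calls were 12 between days 0 and 2, 23 between days 6 and 8 and 1 between days 8 and 10. With 16 added to each signal they were 27 between days 6 and 8 and 2 between days 8 and 10. Fitting the 4 arrays of the days compared gave 22 and 3 for those steps, no variance trend gave 5 between days 6 and 8, and no filter gave 12 between days 4 and 6. The cause of these shifts was not tested. Shares of all probe sets called under the same settings are not given, and those of the main fit are no background for these counts. The calls that held under every setting were 9 of 25, 6 of 22, 5 of 19 and 0 of 9 in the 4 steps up to day 8, and 29 of 37 for day 8 against day 4. Over single genes 2057 results kept their call, 288 lost it and 0 reversed.

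The replicate numbers did not pair the arrays: correlations of replicate differences between days ran from -0.07 to 0.13 over 15 pairs of days. With a replicate block the member calls came to 26, 21, 19, 11 and 0 for the 5 steps in order, and 38 for day 8 against day 4. The shares of all probe sets called with this block are not given.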
